A study of Rattus norvegicus with 65 samples.

Results

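The genes for 9 gut-brain peptide receptors were followed in the rat hypothalamus: the cholecystokinin receptors Cckar and Cckbr, the neurotensin receptors Ntsr1 and Ntsr2, the receptors of vasoactive intestinal peptide (VIP) Vipr1 and Vipr2, the receptor of pituitary adenylate cyclase-activating polypeptide (PACAP) Adcyap1r1, and the bombesin-like peptide receptors Nmbr and Grpr. They were taken by gene symbol from a table of 38513 genes, where each symbol had its own entry, and all 9 were expressed highly enough to enter the tests on 21871 genes. In Rnor_6.0, the build of the files, all lie on the plus strand, with Cckar at chr14:59610939-59619786, Cckbr at chr1:170262218-170272298, Ntsr1 at chr3:175982313-176046345, Ntsr2 at chr6:41917065-41923780, Vipr1 at chr8:130283453-130313431, Vipr2 at chr6:143932960-144009476, Adcyap1r1 at chr4:85662809-85711696, Nmbr at chr1:8933744-8945850 and Grpr at chrX:32746259-32786266. RNA of the dissected hypothalamus of 65 male Wistar rats was sequenced, 1 library per animal. The animals were 9 to 10 weeks old at the start. All but those labelled lean, for which no such period is given, ate a high-fat diet for 6 weeks. The animals were killed 4 weeks after the intervention, after 10 h of fasting. Roux-en-Y gastric bypass (RYGB), which leaves a small gastric pouch and reroutes the small intestine, was performed in 14 animals, and 11 animals had a sham operation. A body-weight-matched (BWM) group of 7 sham-operated animals was restricted in its food so as to follow the weight of the RYGB-treated animals. Liraglutide, a long-acting agonist of the glucagon-like peptide 1 receptor, was given to 5 animals at 0.4 mg/kg/day under the skin, the gut peptide PYY3-36 to 4 animals at 0.1 mg/kg/day by minipump, both to 10 animals, and saline to 8. A group of 6 animals was labelled lean, and it is taken here to be the group kept on low-fat diet. After the intervention the other groups, apart from the BWM animals, chose freely between high-fat and low-fat food. The experiment ran in 2 periods, batch A with 37 animals and batch B with 28, and the BWM and lean groups were in batch A alone while the liraglutide and PYY3-36 groups were in batch B alone. RYGB-treated animals numbered 11 in batch A and 3 in batch B, against 5 and 6 sham-treated animals.

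All 9 are G protein-coupled receptors on the cell surface. Cholecystokinin, released by the gut after a meal and made by neurons, acts on the A receptor, which is best known for satiety signals carried by the vagus nerve, while the B receptor also binds gastrin and is the common form in the brain. Neurotensin lowers food intake through the first neurotensin receptor, and the other neurotensin receptor is abundant in astrocytes. VIP and PACAP share the VIP receptors, which raise cyclic AMP through the protein Gs, and the second VIP receptor keeps the neurons of the suprachiasmatic nucleus in time. The receptor encoded by Adcyap1r1 prefers PACAP. Neuromedin B and gastrin-releasing peptide, the mammalian relatives of bombesin, bind the receptors of Nmbr and Grpr, which signal through the protein Gq, and both peptides reduce food intake.

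The libraries held 20041010 to 36539941 counts assigned to genes. The tissue label was checked with 14 hypothalamus markers, among them the peptides orexin (Hcrt), melanin-concentrating hormone (Pmch), vasopressin (Avp) and oxytocin (Oxt) and the transcription factors Sim1 and Otp. In 11 of 65 libraries at least 5 of the 14 markers were below 1 CPM, the count scaled to the library's TMM-adjusted depth: 3 of 11 sham, 2 of 6 lean, 2 of 5 liraglutide and 1 each of the BWM, saline, PYY3-36 and combination groups, but 0 of 14 RYGB libraries. In those 11 libraries Pmch had a median of 3.90 CPM against 632 CPM in the other 54, and Otp 0.0474 against 9.57 CPM. Of the 14 markers only Npy had a higher median in the 11, with 34.4 against 13.5 CPM. Sim1 reached 18.3 CPM and Nkx2-1 13.2 CPM among the 11, which are called libraries lacking hypothalamus markers below although the lack was not complete. The summed level of the 14 markers was 725 to 6991 CPM in the RYGB libraries and 59.3 to 6951 CPM in the sham libraries, where Hcrt, Sim1, Fezf1 and Otp were at 0 in at least 1 library. Genes of neighbouring tissue were high in some libraries of most groups. Cortex and hippocampus markers were high in RYGB animal 6, sham animal 2 and lean animal 2. Their sum also reached 1228 CPM in a saline library and 789 CPM in a PYY3-36 library. Striatum markers summed to 4368 CPM in a BWM library and 3727 CPM in a sham library, with group medians of 200 and 383. The striatum median was 711 CPM in lean and 687 CPM in combination libraries, against 256 CPM in saline libraries. Anterior pituitary markers were high in BWM animal 5, and thalamus and habenula markers in saline animals 5 and 7 and sham animal 1. The group comparisons were repeated without the 11 libraries, a choice made after seeing the data. In bulk tissue fewer cells of a type and less RNA per cell cannot be told apart. Batch was a term of every fit over both periods, since 8905 of 21871 genes differed between them.

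Per kb of exon, a scale on which genes can be compared, the 9 receptors differed widely. Ntsr2 was the most abundant with a median of 97.2 CPM per kb over the 65 libraries, followed by Adcyap1r1 with 44.4. The cholecystokinin B receptor gene Cckbr had 3.98 and Ntsr1 3.47 CPM per kb, and Cckar, the satiety receptor of the pair, 1.55. Vipr2 with 0.981 and Nmbr with 0.915 CPM per kb lay close together, Vipr1 had 0.383 and Grpr 0.0834. Each pair of receptors for the same peptides was thus uneven: the median of Ntsr2 exceeded that of Ntsr1, Cckbr exceeded Cckar, and Vipr2 exceeded Vipr1. Grpr was at 0 in 17 libraries and Cckar in 3, whereas the other 7 receptors had counts in every library. The genes of the peptides lay between 33.5 CPM per kb for neurotensin (Nts) and 2.55 for neuromedin B (Nmb), with cholecystokinin (Cck) at 23.2, PACAP (Adcyap1) at 12, VIP (Vip) at 4.40, gastrin-releasing peptide (Grp) at 4.37 and gastrin (Gast) at 3.44.

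**Figure D1:**
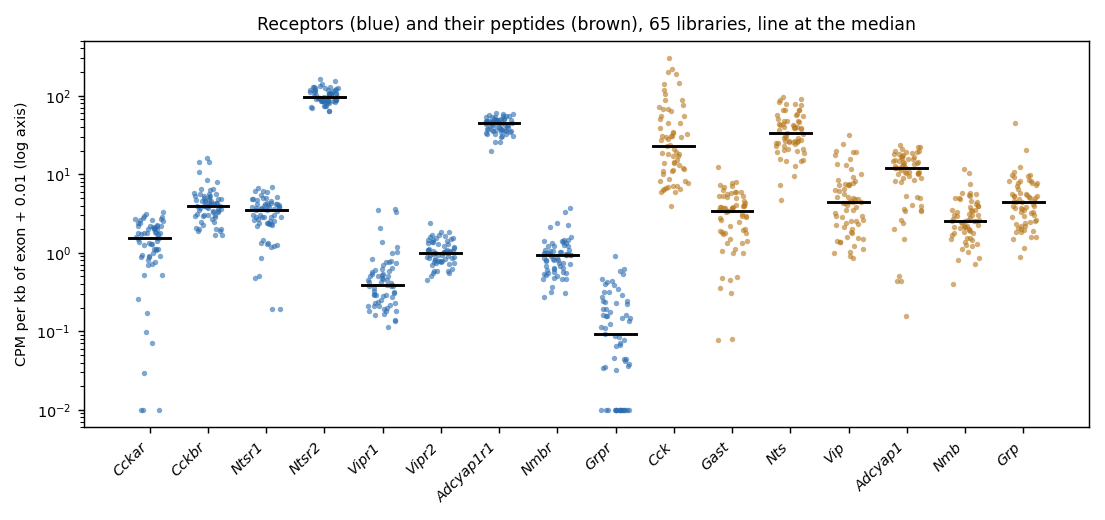
Level of the 9 receptor genes (blue) and of the genes of their 7 peptides (brown) in each of 65 libraries, as CPM per kb of exon plus 0.01 on a log axis, with a line at the median. Ntsr2 and Adcyap1r1 form narrow bands at 97.2 and 44.4 CPM per kb, and the 17 libraries without a Grpr count sit at the bottom of the axis.

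The spread among animals differed as much as the level. Ntsr2 and Adcyap1r1 were steady, with coefficients of variation of 20.5% and 20.4% and highest-to-lowest ratios of 2.57 and 3.05. Vipr2 varied by 35.7%, Ntsr1 by 47.6%, Cckar by 56.5%, Cckbr by 61.1% and Nmbr by 62.1%, and the largest were Vipr1 with 120% and Grpr with 121%. Vipr1 was below 10 CPM in all but 3 libraries, RYGB animal 6 with 16.4 CPM, lean animal 2 with 16.2 and sham animal 2 with 15.0. When the 8 groups were ordered by median, each of the 9 receptors had ranges that overlapped between all 7 pairs of neighbouring groups. The highest group median was 1.38 times the lowest for Vipr2 and 3.0 times for Nmbr, the ends of the range among the 8 receptors with a median above 0 in every group.

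**Figure D2:**
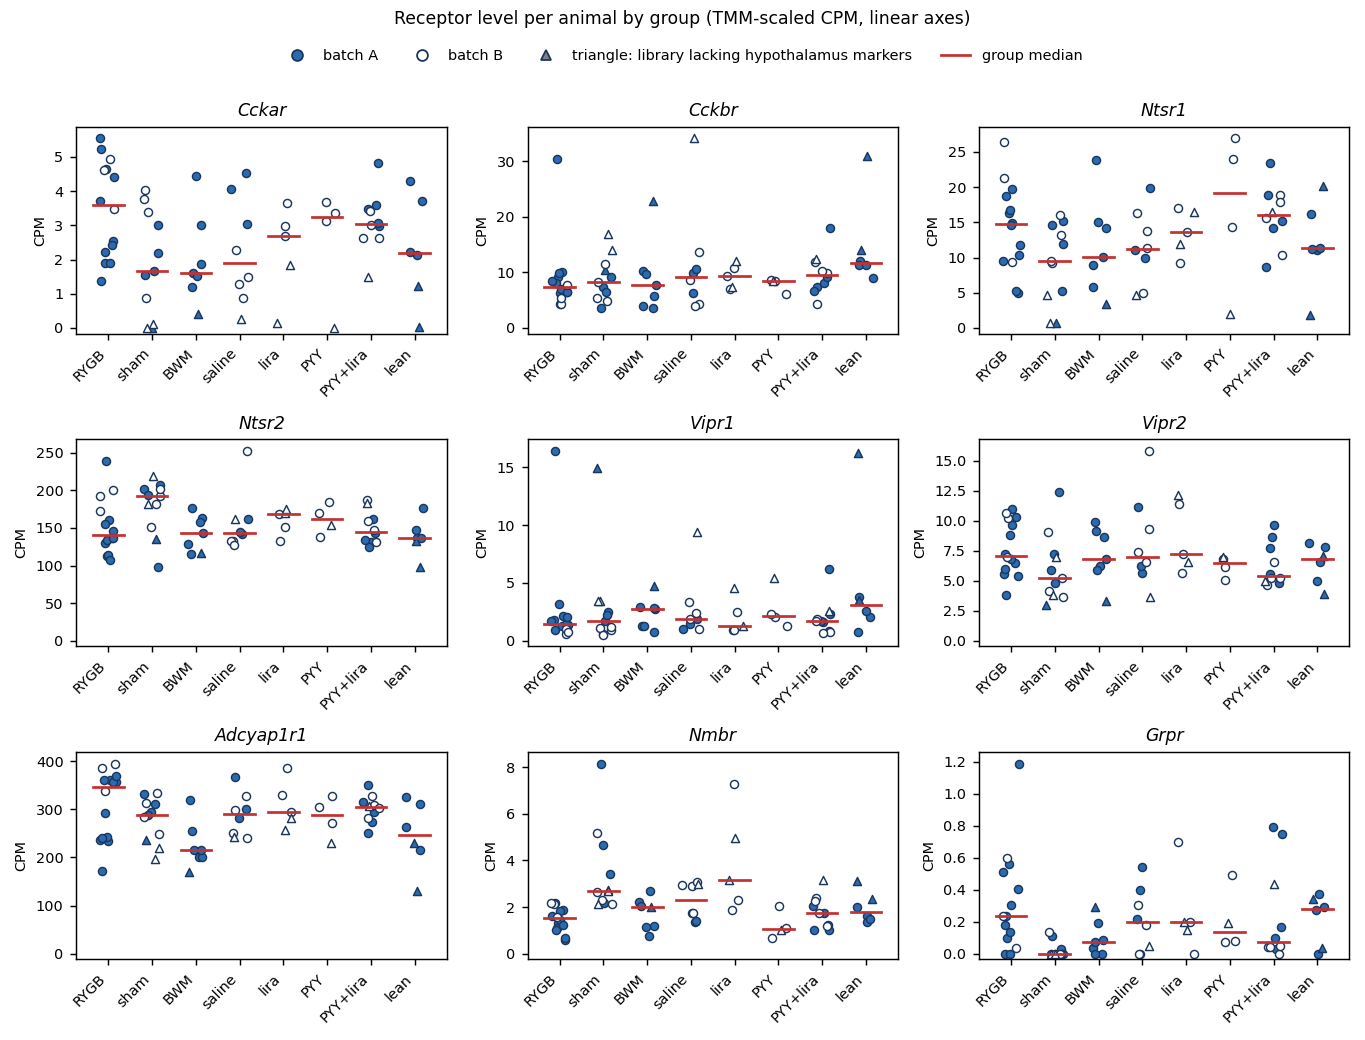
TMM-scaled CPM of each receptor in every animal by group on linear axes, where lira stands for liraglutide and PYY for PYY3-36. Filled symbols are batch A, open symbols batch B, triangles the 11 libraries lacking hypothalamus markers, and red lines group medians; for Nmbr the 14 RYGB animals lie at or below 2.19 CPM and the sham animals between 2.12 and 8.15.

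Several receptors moved with the hypothalamus markers. In the 11 libraries lacking them, Cckar was at a median of 0.148 CPM (0 to 1.83) against 3.02 CPM (0.865 to 5.56) in the other 54. Ntsr1 was at 4.61 CPM against 14.2, and Adcyap1r1 at 231 against 300 CPM. Cckbr and Vipr1 went the other way, with 14 against 8.13 CPM for Cckbr and 4.55 against 1.63 CPM for Vipr1. The split was made by marker content, and its part in the receptor levels was not tested. Ntsr2 had medians of 162 and 147 CPM and Grpr of 0.148 and 0.105 CPM, and Nmbr had a median of 2.74 CPM (0.996 to 4.95) against 1.79 (0.574 to 8.15). Vipr2 reached its highest values, 15.8 and 12.4 CPM, in saline animal 7 and sham animal 1, both libraries with high thalamus and habenula markers.

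**Figure D3:**
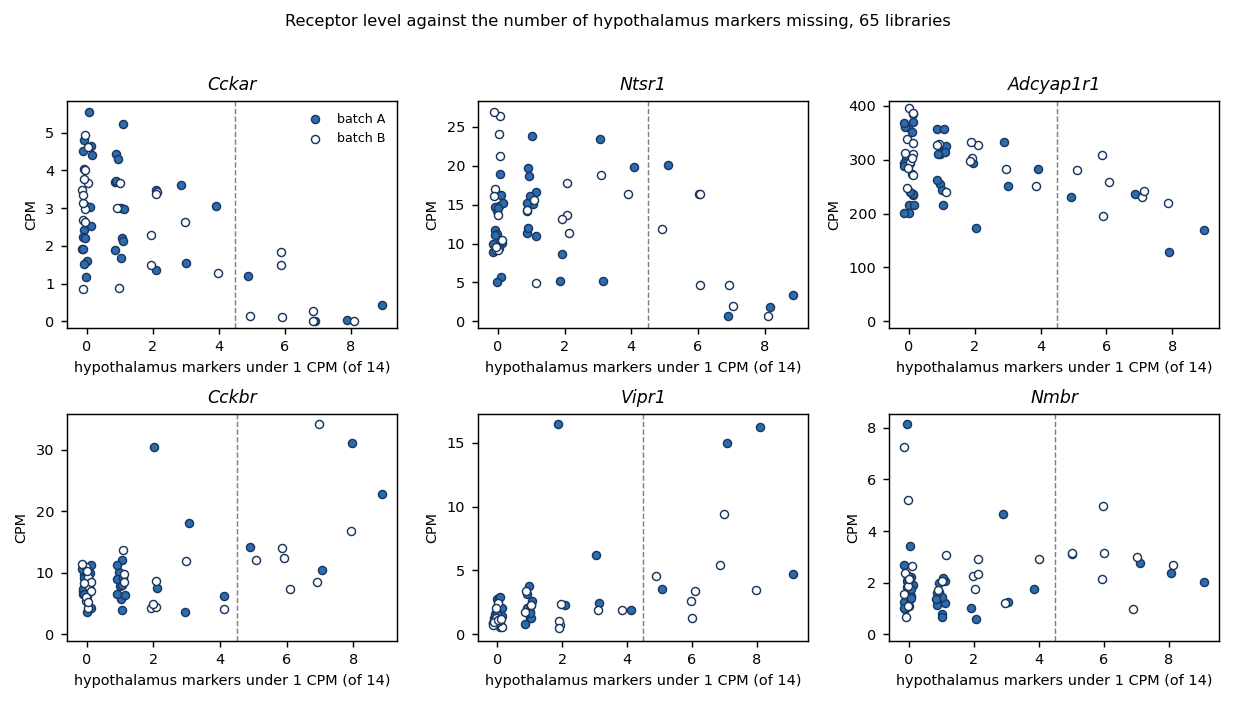
CPM of 6 receptors against the number of the 14 hypothalamus markers below 1 CPM, 1 point per library, filled for batch A and open for batch B. Right of the dashed line, at 5 or more missing markers, lie the 11 libraries in which Cckar was at most 1.83 CPM and the Vipr1 median was 4.55 CPM.

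Across the 65 libraries, with the batch means removed, the log2 levels of Cckar and Adcyap1r1 had a Pearson correlation of 0.74, Cckar and Ntsr1 of 0.73, and Ntsr1 and Adcyap1r1 of 0.52. Cckbr and Vipr1 were correlated at 0.67, and Vipr1 ran against Cckar (-0.71), Adcyap1r1 (-0.63) and Ntsr1 (-0.61). These values share the libraries and the uneven tissue content described above, and with group means removed too Cckar with Adcyap1r1 was at 0.74 and Cckbr with Vipr1 at 0.69. Nmbr and Grpr, the bombesin-like receptors, had a correlation of -0.06, which was 0.23 with group means removed. The correlations of Nmbr with the other receptors lay between -0.18 and 0.12. Of all 21871 genes, the closest to Cckar was Peg3 (r = 0.90), to Cckbr Kcnv1 (0.82), to Ntsr1 Klhl1 (0.90), to Ntsr2 LOC100910284 (0.80), to Vipr1 Tspan5 (0.88), to Vipr2 LOC102553183 (0.67), to Adcyap1r1 Eps8 (0.86), to Nmbr Clcn1 (0.59) and to Grpr Prrc2b (0.73). Without the 2 libraries farthest from the median of the receptor, these correlations were 0.63 to 0.88 except for Clcn1, which fell to 0.39 and thus rested on sham animal 3 and liraglutide animal 5. Next in likeness were Gaa and Gabrq for Cckar, Dclk1 and Cobl for Cckbr, Phlda3 and Adcy7 for Ntsr1, Tst and Cst3 for Ntsr2, Fam212b and Sept5 for Vipr1, Synpo2 and Vangl1 for Vipr2, RGD1311575 and Ncam1 for Adcyap1r1, Smim18 and LOC103692167 for Nmbr, and Hcfc1 and Bptf for Grpr.

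The sequence just before the start of the gene is shown for Ntsr1 with Adcyap1r1 (r = 0.52) and Cckbr with Vipr1 (0.67). It is also shown for Nmbr, which was lower after RYGB than after sham, as described further on. The RefSeq promoter table of build GRCr8 held 7 of the 9 receptors and lacked Cckar and Grpr. Among the receptors, Cckar had the highest correlation with both Ntsr1 and Adcyap1r1, and it cannot be shown. The 250 bases before the start are printed 5′ to 3′ with matches in capitals on both strands. The matches are to the GC box GGGCGG and to TGACG, the first letters of the cyclic AMP response element TGACGTCA.
Ntsr1, chr3:187983528-187983777, + strand: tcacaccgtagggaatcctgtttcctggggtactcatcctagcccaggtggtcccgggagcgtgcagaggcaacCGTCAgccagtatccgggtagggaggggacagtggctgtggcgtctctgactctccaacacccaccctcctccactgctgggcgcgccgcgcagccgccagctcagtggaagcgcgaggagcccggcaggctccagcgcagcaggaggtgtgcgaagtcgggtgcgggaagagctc
Adcyap1r1, chr4:85923921-85924170, + strand: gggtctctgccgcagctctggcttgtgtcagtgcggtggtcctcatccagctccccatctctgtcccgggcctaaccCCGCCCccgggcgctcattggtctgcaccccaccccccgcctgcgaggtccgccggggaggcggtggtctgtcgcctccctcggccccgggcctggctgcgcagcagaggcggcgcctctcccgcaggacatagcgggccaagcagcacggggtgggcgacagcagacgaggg
Cckbr, chr1:169183328-169183577, + strand: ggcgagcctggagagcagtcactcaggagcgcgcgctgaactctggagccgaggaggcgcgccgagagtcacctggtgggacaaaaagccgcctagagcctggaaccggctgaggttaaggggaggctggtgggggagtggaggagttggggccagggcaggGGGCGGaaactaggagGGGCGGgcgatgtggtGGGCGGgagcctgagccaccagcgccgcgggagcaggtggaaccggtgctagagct
Vipr1, chr8:130187511-130187760, + strand: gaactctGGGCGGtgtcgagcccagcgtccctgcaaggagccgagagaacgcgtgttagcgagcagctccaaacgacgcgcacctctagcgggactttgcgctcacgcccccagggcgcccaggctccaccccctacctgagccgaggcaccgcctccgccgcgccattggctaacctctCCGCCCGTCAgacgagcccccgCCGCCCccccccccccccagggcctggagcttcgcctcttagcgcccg
Nmbr, chr1:10954734-10954983, + strand: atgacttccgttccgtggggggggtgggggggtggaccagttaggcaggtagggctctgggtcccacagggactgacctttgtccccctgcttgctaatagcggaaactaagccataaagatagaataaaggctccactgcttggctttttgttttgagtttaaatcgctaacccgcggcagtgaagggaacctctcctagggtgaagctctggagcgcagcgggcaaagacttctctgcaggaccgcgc
GC boxes were found 3 times each before Cckbr and Vipr1, 1 time before Adcyap1r1, and 0 times before Ntsr1 and Nmbr, where 30.5% of 33469 promoters held at least 1. TGACG was matched 1 time each before Ntsr1 and Vipr1, in the latter overlapping a GC box, and 18.2% of promoters held it. None of the 7 receptors matched the full TGACGTCA (1.59% of promoters) or TATAAA (12.9%). The G and C share was 73.2% before Adcyap1r1, 72.0% before Vipr1, 68.8% before Cckbr, 66.8% before Ntsr1 and 56.0% before Nmbr, against a median of 51.2% over all promoters. The starts used for Vipr1, Vipr2 and Nmbr lie inside the gene as the same assembly gives it, so other transcripts may start elsewhere. A match is a description of letters and not a binding site.

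RYGB against sham asks what the operation changed in the hypothalamus of obese rats. Nmbr was lower and Grpr higher in RYGB-treated than in sham-treated animals, so that the bombesin-like receptors differed in opposite directions. The other 7 receptors did not pass the test. Both are differences from sham, and neither was called in RYGB against saline, the other control, as given further on. With edgeR's quasi-likelihood test and Benjamini-Hochberg adjustment over all genes, 2 of 9 receptors were called at an adjusted p below 0.05, beside 13% of all 21871 genes. DESeq2 called 1 receptor, Nmbr, and gave Grpr no adjusted p, so its count does not bear on Grpr. The 1 receptor that fell stood beside 6.53% of genes that fell, and the 1 that rose beside 6.52% that rose. Both calls also exceeded the log2 fold change of 1 that the study required, as did 2.37% of all genes. Neither count sets the receptors apart from other genes.

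Nmbr encodes the receptor of neuromedin B. Its level was 0.574 to 2.19 CPM in RYGB-treated animals, with a median of 1.51 and a mean of 1.48 ± 0.531 (SD, n = 14), and 2.12 to 8.15 CPM in sham-treated animals, with a median of 2.69 and a mean of 3.48 ± 1.86 (SD, n = 11). All 14 RYGB-treated animals were below the sham median of their own batch, and the groups overlapped only between 2.12 and 2.19 CPM. The fitted log2 fold change was -1.18 (SE 0.24), with an adjusted p of 0.00192. Removing any single animal left it between -1.24 and -0.90 with an adjusted p of at most 0.0104, the extreme being without sham animal 3, which had the highest level of 8.15 CPM.

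The fall was larger in batch A than in batch B. In batch A, the 5 sham-treated animals had 4.66, 2.74, 8.15, 3.42 and 2.18 CPM, and the 11 RYGB-treated animals 0.574 to 2.19 with a median of 1.29. The log2 fold change in batch A alone was -1.63 (SE 0.28, adjusted p = 0.0135, in a fit that called 2.43% of genes). In batch B, the 3 RYGB-treated animals had 2.12, 1.57 and 2.18 CPM and the 6 sham-treated animals 2.12 to 5.19 with a median of 2.48. There the log2 fold change was -0.52 (SE 0.39, adjusted p = 0.430, in a fit that called 11.8% of genes), so the fall did not hold on its own in batch B. The difference between the batches was 1.10 on the log2 scale (SE 0.49) with an adjusted p of 0.398, and 0 of 9 receptors were called in that test (1 at an unadjusted p below 0.05) beside 0% of all genes.

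Without the 11 libraries lacking hypothalamus markers, Nmbr was still lower after RYGB, with a log2 fold change of -1.33 (SE 0.26, adjusted p = 0.00716), where 1 of 9 receptors and 5.9% of genes were called. With scores of neighbouring tissue as covariates it was -0.89 (SE 0.25, adjusted p = 0.0118). Other tissue markers also differed between RYGB and sham: choroid plexus Kl (log2 fold change 2.47) and Prlr (1.48) among 8 markers, Lhx1 (1.66) among 5 of the suprachiasmatic nucleus, Rorb (0.42) among 8 of thalamus and habenula, Gjb6 (0.67) among 7 of astrocytes and Cx3cr1 (0.59) among 6 of microglia rose. Of these only Kl and Lhx1 were still called without the 11 libraries, and the adjusted p was 0.117 for Prlr, 0.186 for Rorb, 0.0901 for Gjb6 and 0.0514 for Cx3cr1. The summed astrocyte markers were 1859 to 4236 CPM in RYGB and 1789 to 3808 CPM in sham libraries. The summed meninges markers were 98.9 to 2961 CPM in RYGB and 57.2 to 1030 CPM in sham libraries with 0 of 7 called, and the summed choroid plexus markers 17 to 3616 and 11.9 to 687 CPM. Over the 65 libraries, Nmbr had a correlation of -0.45 with the astrocyte score and -0.40 with the meninges score, whose part in the fall was not tested beyond the covariates above. Nmbr counts were not whole in 34 libraries, since reads that matched several places or overlapped several genes were divided among them, and 16 to 233 counts per library were behind the values.

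Grpr encodes the receptor of gastrin-releasing peptide and was close to the limit of detection. Sham-treated animals had 0 counts in 8 of 11 libraries, 1 to 3 counts in the others and 7 counts in all, while RYGB-treated animals had 0 counts in 2 of 14 libraries, up to 37 in the highest and 139 in all. On the CPM scale the RYGB median was 0.235 (0 to 1.19) and the sham median 0 (0 to 0.133). In 12 of 14 RYGB-treated animals Grpr was above the sham median of the batch, and the ranges overlapped. The log2 fold change was 3.22 (SE 0.84) with an adjusted p of 0.00961, a fitted value that depends on how counts of 0 are handled. As a ratio of summed counts per library depth, RYGB was 13.7 times sham with an exact 95% interval of 6.45 to 34.6, which covers counting error and not the spread among animals.

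The direction of Grpr was the same in both batches. In batch A the counts summed to 116 in RYGB and 4 in sham libraries, a ratio of 13.3 (exact interval 5.06 to 49.6), and in batch B to 23 and 3, a ratio of 12.6 (3.80 to 65.4). The fitted log2 fold changes of 3.41 in batch A and 3.36 in batch B did not pass alone, with adjusted p of 0.0743 and 0.0926. Without the 11 libraries the log2 fold change was 2.85 (SE 0.94) and no longer called, with an adjusted p of 0.0563. DESeq2 gave a log2 fold change of 3.39 and no adjusted p, since its filter on low counts left Grpr out.

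**Figure D4:**
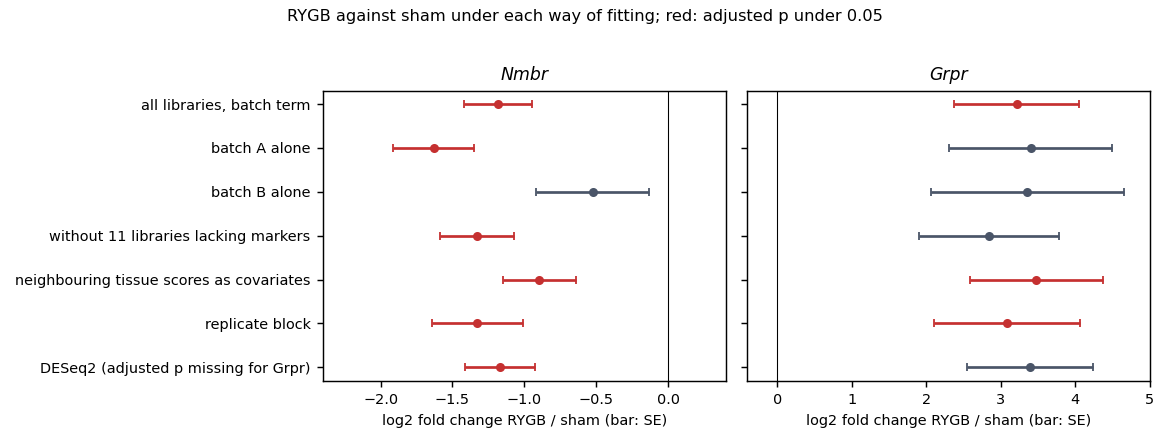
Log2 fold change of Nmbr and Grpr in RYGB against sham with its standard error, each line a different way of fitting. Nmbr is negative in all 7 and red (adjusted p below 0.05) in all but batch B alone; Grpr is between 2.85 and 3.48 in all 7 and red in 3.

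The remaining 7 receptors did not pass the test in RYGB against sham over both batches. Cckar had a median of 3.60 CPM (1.36 to 5.56) in RYGB and 1.67 (0 to 4.02) in sham libraries, a log2 fold change of 0.82 (SE 0.51) with an adjusted p of 0.277. Without the 11 libraries, 3 of which are sham libraries with Cckar at 0, 0 and 0.104 CPM, the log2 fold change was 0.43 (adjusted p = 0.341). Ntsr1 had 14.8 CPM (5.01 to 26.4) against 9.51 (0.713 to 16.1), with a log2 fold change of 0.64 (SE 0.36, adjusted p = 0.219) and of 0.30 without the 11 libraries.

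Adcyap1r1, the PACAP receptor gene, had 347 CPM (172 to 395) in RYGB and 289 (196 to 333) in sham libraries, a log2 fold change of 0.16 (SE 0.12, adjusted p = 0.358) and of 0.07 without the 11 libraries. In batch B alone it was higher after RYGB, by 0.50 (SE 0.15, adjusted p = 0.0258). That fit also called many other genes, with the share given above for Nmbr in batch B. The 3 RYGB-treated animals had 395, 338 and 386 CPM and the 6 sham-treated animals 196 to 333. The lowest sham values there, 196 and 220 CPM in animals 10 and 6, came from libraries lacking hypothalamus markers. In batch A the log2 fold change was 0.01. That difference between batches was 0.49 (SE 0.25, adjusted p = 0.496). Vipr2, the VIP receptor gene of the suprachiasmatic nucleus, had 7.10 CPM (3.84 to 11) against 5.24 (2.97 to 12.4), with 11 of 14 RYGB-treated animals above the sham median of their batch and a log2 fold change of 0.35 (SE 0.20, adjusted p = 0.243). Vipr1 had 1.41 CPM (0.588 to 16.4) against 1.68 (0.483 to 15.0). Its log2 fold change of -0.47 (SE 0.50) hung on single libraries, being -1.14 without RYGB animal 6, 0.32 without sham animal 2 and 0.63 without the 11 libraries, and none of these were called.

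For the abundant Ntsr2, the median was 141 CPM (107 to 239) in RYGB and 193 CPM (98.4 to 219) in sham libraries, and 11 of 14 RYGB-treated animals were below the sham median of their batch. The log2 fold change was -0.16 (SE 0.11, adjusted p = 0.346). Cckbr had 7.35 CPM (4.31 to 30.5) against 8.24 (3.59 to 16.8), a log2 fold change of 0.03 (SE 0.32, adjusted p = 0.957) and of 0.24 without the 11 libraries. The 95% intervals of these log2 fold changes were -0.38 to 0.06 for Ntsr2, -0.07 to 0.40 for Adcyap1r1 and -0.59 to 0.65 for Cckbr, all within 1 on the log2 scale. Those of Cckar (-0.18 to 1.81), Ntsr1 (-0.06 to 1.34) and Vipr1 (-1.46 to 0.51) reached beyond 1 on that scale, and that of Vipr2 ran from -0.05 to 0.75.

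Saline was the other control present in both batches. Against it, RYGB-treated animals had a log2 fold change of -0.48 for Nmbr (SE 0.27) and 0.37 for Grpr (SE 0.71), and edgeR called 0 of 9 receptors (0 at an unadjusted p below 0.05, DESeq2 0), beside 0.00457% of genes. Sham against saline was 0.71 for Nmbr (SE 0.28, adjusted p = 0.303) and -2.85 for Grpr (SE 0.91, adjusted p = 0.232). There too 0 of 9 receptors were called (2 at an unadjusted p below 0.05, DESeq2 0), beside 0.0137% of genes (0.00914% with a log2 fold change over 1). RYGB against saline without the 11 libraries was -0.42 for Nmbr and 0.22 for Grpr, and sham against saline 0.92 and -2.63, none of them called. The saline animals had 1.36, 1.40 and 1.74 CPM of Nmbr in batch A and 1.74 to 3.09 in batch B, and their batch A values were inside the RYGB range of 0.574 to 2.19. Grpr was at 0 counts in 2 of 8 saline libraries and summed to 47 counts. By the point estimates of the fit over both batches, Nmbr and Grpr were nearer to saline in RYGB-treated than in sham-treated animals. For Nmbr this depended on the batch. In batch A alone, RYGB against saline was -0.14 and sham against saline 1.49, but in batch B alone they were -0.47 and 0.06. With no batch term they were -0.61 and 0.62, and none of these Nmbr values were called. Whether the RYGB or the sham group had moved was not tested. These comparisons share the sham or the RYGB animals, so they are not independent of each other.

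**Figure D5:**
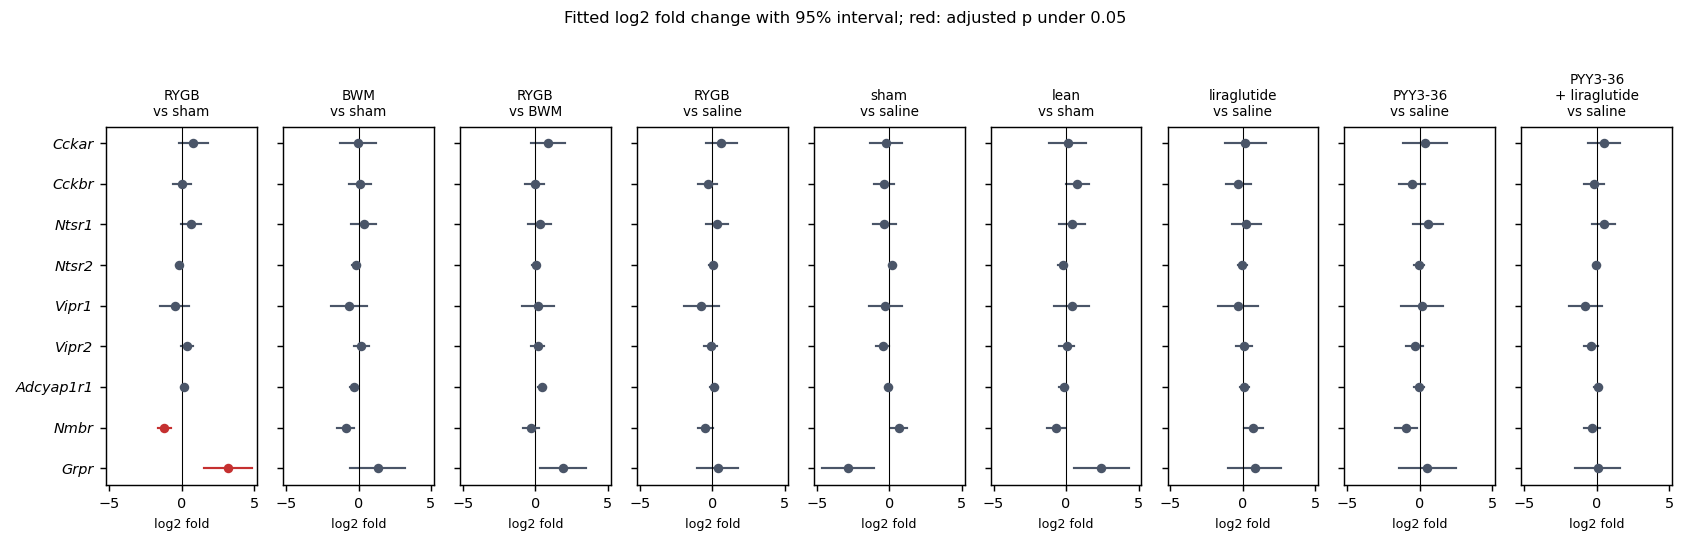
Fitted log2 fold change (point) with its 95% interval (line) of the 9 receptors in 9 comparisons, which share control groups. Red marks an adjusted p below 0.05, reached by Nmbr at -1.18 and Grpr at 3.22 in RYGB against sham and by no receptor in the other 8 comparisons.

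BWM against sham asks what weight loss by food restriction did, and RYGB against BWM how the operation differed from food restriction. In BWM against sham, edgeR called 0 of 9 receptors (2 at an unadjusted p below 0.05, DESeq2 0), beside 0.32% of genes (0.00914% in the lower direction). Nmbr was 2.01, 2.22, 0.779, 1.2, 1.15, 2.67 and 2.06 CPM in the 7 BWM animals, all below the sham median of batch A, with a log2 fold change of -0.89 (SE 0.30, adjusted p = 0.174). Within batch A, the only batch with BWM animals, it was -1.29 (SE 0.32) and called, with an adjusted p of 0.0384, where 1.59% of genes were called. With neighbouring-tissue scores as covariates it was -0.40 (SE 0.35, adjusted p = 0.726), without the 11 libraries -1.08 (SE 0.34, adjusted p = 0.118) and without sham animal 3 -0.60 (adjusted p = 0.416). Grpr was at 0 in 2 of 7 BWM libraries, with 21 counts in all and a log2 fold change of 1.31 (SE 0.97), which was 0.34 without the 11 libraries and 0.76 without BWM animal 1. In RYGB against BWM, Nmbr differed by -0.29 (SE 0.28, adjusted p = 0.668) and Grpr by 1.91 (SE 0.81, adjusted p = 0.341), or by -0.25 and 2.5 without the 11 libraries, neither of them called. Other-tissue markers moved in these comparisons. Of 8 anterior pituitary markers 5 were called higher in BWM than in sham libraries, the transcription factor gene Pou1f1 (log2 fold change 9.31) and the hormone genes Prl (10.35), Gh1 (10.65), Fshb (8.41) and Lhb (2.60), as was the choroid plexus marker Kl (2.31), and 6 of 8 were called lower in RYGB than in BWM libraries, the same 5 and Gnrhr. The summed level of the pituitary markers was 1.14 to 76768 CPM in BWM libraries with a median of 12.7. It was 3.39 to 468 CPM in sham libraries with a median of 4.46, and 2.02 to 497 CPM in RYGB libraries with a median of 20.4. The RYGB median was thus above the BWM median, although the markers were called lower in RYGB. The part of these markers in the receptor values was not tested.

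Adcyap1r1 was the receptor with the smallest p in RYGB against BWM. It was 170 to 319 CPM in BWM animals with a median of 215, and 10 of the 11 RYGB-treated animals of batch A were above that median. The log2 fold change was 0.46 (SE 0.14) with an adjusted p of 0.168, and without BWM animal 4, which had the highest level of its group at 319 CPM, it was 0.58 (SE 0.14, adjusted p = 0.0335). It was 0.39 (SE 0.13, adjusted p = 0.135) without the 11 libraries. With all animals, 0 of 9 receptors were called (2 at an unadjusted p below 0.05, DESeq2 0), beside 0.343% of genes (0.00914% in the higher direction). Against saline, BWM animals had a log2 fold change of -0.35 for Adcyap1r1 (SE 0.16, adjusted p = 0.767), and 0 of 9 receptors were called (1 at an unadjusted p below 0.05, DESeq2 0) beside 0.0412% of genes. The pituitary markers Pou1f1, Prl, Gh1 and Fshb were called there too.

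The hormone groups were compared with saline to see whether gut hormones alone reached the same genes. In PYY3-36 against saline 0 of 9 receptors were called by edgeR (1 at an unadjusted p below 0.05, DESeq2 0), in liraglutide against saline 0 of 9 (1 at an unadjusted p below 0.05, DESeq2 0) and in the combination against saline 0 of 9 (0 at an unadjusted p below 0.05, DESeq2 0). Of all genes, 0%, 0% and 0.00457% were called in these comparisons. Nmbr had the smallest p with either hormone alone. Among the 4 PYY3-36-treated animals it was 1.11, 0.996, 0.656 and 2.04 CPM, against 1.74 to 3.09 in the 5 saline animals of batch B, with a log2 fold change of -0.98 (SE 0.39, adjusted p = 0.652). In the 5 liraglutide-treated animals it was 1.89, 2.31, 4.95, 3.16 and 7.25 CPM, a log2 fold change of 0.71 (SE 0.33, adjusted p = 1) that was 0.38 without animal 5, the highest, and in the 10 animals with both hormones 0.997 to 3.14 CPM with a median of 1.74 and a log2 fold change of -0.30 (SE 0.28, adjusted p = 1). The point estimates of the hormones alone thus had opposite signs, and neither passed the test. They were -0.84 and 0.74 without the 11 libraries. Of the marker lists, the habenula gene Gpr151 was called lower in the combination and in RYGB, each against saline, where saline animals 5 and 7 had high thalamus and habenula markers.

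Lean against sham animals showed 0 of 9 receptors called by edgeR (2 at an unadjusted p below 0.05, DESeq2 0), beside 0% of genes. DESeq2 gave Grpr no adjusted p there either. Nmbr was 1.61, 2.36, 1.37, 2.0, 3.11 and 1.47 CPM in the 6 lean animals, with a log2 fold change of -0.69 (SE 0.31, adjusted p = 0.374), and Grpr had a log2 fold change of 2.44 (SE 0.97, adjusted p = 0.314). Cckbr had its highest group median in lean animals, 11.7 CPM (8.94 to 31.0) against 8.24 in sham animals, with a log2 fold change of 0.78 (SE 0.39, adjusted p = 0.411). It was 0.50 without the 11 libraries, 2 of which are lean, 0.31 with the tissue scores as covariates and 0.42 without lean animal 2. Leaving out those 11 put Nmbr at -1.14 and Grpr at 2.1, neither of them called. Against saline, 0 of 9 receptors were called in lean animals (0 at an unadjusted p below 0.05, DESeq2 0), beside 0% of genes. Between the batches, only Ntsr2 was called, higher in batch B with a log2 difference of 0.23 (SE 0.09, adjusted p = 0.0296), beside 40.7% of genes (19.3% higher in batch B), and DESeq2 called it too. Without the 11 libraries it was 0.17 and not called (adjusted p = 0.147), while Vipr1 was called at -0.91 (adjusted p = 0.0474).

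Of the 7 peptide genes that serve these receptors, edgeR called 0 in RYGB against sham (2 at an unadjusted p below 0.05, DESeq2 0), with a median log2 fold change of -0.03 against -0.02 over all genes. Nts, the neurotensin gene, was 7.51 to 34.0 CPM with a median of 19.9 in RYGB and 11.7 to 76.6 with a median of 45 in sham libraries. Its log2 fold change was -0.75 (SE 0.30, adjusted p = 0.0846), and without the 11 libraries it fell by 0.97 on the log2 scale (adjusted p = 0.0393). Vip had a median of 8.49 CPM (2.66 to 41.6) against 2.36 (1.54 to 22.9), and all 14 RYGB-treated animals were above the sham median of their batch, with a log2 fold change of 0.98 (SE 0.54, adjusted p = 0.214). Nmb, whose product binds the receptor of Nmbr, had 3.32 CPM (0.502 to 7.16) against 5.38 (0.917 to 15.2), a log2 fold change of -0.73 (SE 0.36, adjusted p = 0.156) that was -0.11 without the 11 libraries. Adcyap1 had 70.4 CPM (37.5 to 108) against 44.2 (1.97 to 103), with all 14 RYGB-treated animals above the sham median of their batch and a log2 fold change of 0.71 (SE 0.49, adjusted p = 0.329), which was 0.38 without the 11 libraries, where its median was 15.6 CPM against 60.1 in the others. Grp differed by 0.49 (SE 0.47), Cck by -0.14 (SE 0.64) and Gast by -0.03 (SE 0.47), none of them called. Vip was at 1.30, Grp at 0.56, Cck at 0.33 and Gast at -0.40 without the 11 libraries, also not called. In the BWM, lean and hormone comparisons edgeR and DESeq2 called 0 of 7 peptide genes, and at most 1 of 7, Nts in PYY3-36 against saline, had an unadjusted p below 0.05.

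Among the genes that carry the signal inward from these receptors, 3 of 16 of the Gq arm rose in RYGB against sham. Of all 21871 genes, 1425 were called higher there. Gnaq and Gna11, the alpha subunits that couple receptors such as Nmbr and Grpr to phospholipase C, rose by log2 fold changes of 1.18 (SE 0.27, adjusted p = 0.00429) and 0.62 (SE 0.20, adjusted p = 0.0340). Itpr2, a calcium release channel, rose by 0.50 (SE 0.15, adjusted p = 0.0215). The median of the 16 genes was 0.02. Without the 11 libraries Gnaq, Gna11 and Itpr2 were still called, at 1.26, 0.76 and 0.52. In batch B alone these 3 genes were called, and in batch A alone they were not, with adjusted p of 0.160, 0.503 and 0.0921.

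In the Gs arm, which serves the VIP and PACAP receptors, 1 of 18 genes was called in RYGB against sham. Prkar2a, a regulatory subunit of protein kinase A, rose by 0.42 (SE 0.10, adjusted p = 0.00579). Its adjusted p was 0.105 in batch A alone and 0.0138 in batch B alone. Without the 11 libraries Prkar2a was at 0.34 and only just called (adjusted p = 0.0490). Of 10 genes of peptide processing only Tpst2, a protein tyrosine sulfotransferase of the kind that sulfates cholecystokinin, was called at -0.27 (adjusted p = 0.0305), which did not hold without the 11 libraries at -0.17 (adjusted p = 0.204). Of 7 peptidases, Ece1, the endothelin-converting enzyme, which also cleaves neurotensin and bradykinin, rose by 0.66 (SE 0.17, adjusted p = 0.00800) and did so in each batch. Thop1, a neurotensin-cleaving oligopeptidase, fell by 0.33 (adjusted p = 0.00938), but without the 11 libraries was at -0.18 (adjusted p = 0.142). Of 7 tested arrestins and receptor kinases, 0 were called (2 at an unadjusted p below 0.05, DESeq2 0), and of 10 related receptors and accessory proteins, such as the orphan bombesin-like receptor Brs3 and the secretin receptor Sctr, 0 (2 at an unadjusted p below 0.05, DESeq2 0). Each of these shares stood beside 13% of all genes. In the BWM, lean and hormone comparisons edgeR called 0 genes of these lists, with at most 6 of 18, of the Gs arm in RYGB against BWM, at an unadjusted p below 0.05. DESeq2 called 1 there, a peptidase in BWM against sham.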

How the data were processed

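Polyadenylated RNA of 65 hypothalami was sequenced from stranded libraries. The authors trimmed the reads with cutadapt, aligned them with STAR 2.7.2b to Rnor_6.0 and counted them per gene with featureCounts 1.6.4, and the deposited values are estimated counts, because reads overlapping several genes or matching several places were divided among them. 30.3% of the nonzero values were not whole.

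Counts were rounded and scaled by TMM in edgeR 4.0.16 (R 4.3.3), genes were kept with filterByExpr (minimum count 10, minimum total 15), and a quasi-likelihood model with group and batch was fitted to all 65 libraries, with Benjamini-Hochberg adjustment over 21871 genes. A call is an adjusted p below 0.05. Standard errors are the log2 fold change over the root of F. DESeq2 1.42.0, single batches, a replicate block, marker covariates, other filters and scalings and each library left out in turn were alternatives. The fit was tested on simulated data. All 9 receptors and their 7 peptide genes are named, with the 3 genes most correlated with each receptor and, per comparison, up to 6 list genes that passed the test, 1 excepted. The receptors and gene lists were chosen with earlier results of these data known. The result of that 1 list gene is not reported here.

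Groups and replicate numbers come from the labels, which tie each library to 1 animal. Same-numbered liraglutide and saline libraries deviated together (r 0.32 to 0.61 in 5 of 5 pairs), though only 2 of these pairs shared a batch. The replicate block changed no call there. The other comparisons were not paired. Library totals of 20041010 to 36539941 counts leave low genes such as Grpr with few counts. 0 columns of sample values were left unused.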

Additional observations from a re-analysis of the deposited data

Results flagged for a closer look

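In 9 of 81 sets of 4 to 10 animals of 1 group and batch, 1 animal lay far from the others on the log2(CPM + 1) scale by Dixon's criterion, which chance alone meets in about 1 of 20 sets. In 4 of the 9 the library was among those lacking hypothalamus markers.

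Those 4 were Cckar at 0 CPM in PYY3-36 animal 2, with the others at 3.14 to 3.68, Cckbr at 31.0 CPM in lean animal 2 (others 8.94 to 14.1), Ntsr1 at 1.82 CPM in the same lean animal (others 11 to 20.1) and Grpr at 0.436 CPM in animal 8 of the combination (others 0 to 0.0470). Their part in the levels was not tested.

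In the other 5, Cckbr was at 6.07 CPM in PYY3-36 animal 1 (others 8.49 to 8.55) and at 4.23 CPM in animal 10 of the combination (others 9.82 to 12.3). Nmbr was at 1.74 CPM in saline animal 6 (others 2.90 to 3.09) and at 5.19 CPM in sham animal 8 (others 2.12 to 2.69). Grpr was at 0.133 CPM in sham animal 7, where the other sham animals of batch B had 0. In such a set any single library with a count meets the criterion.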

How the results depend on the processing

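In RYGB against sham 2 receptors were called, and 1 was called within batch A, within batch B, with only the 2 groups in the fit, with DESeq2 and without the 11 libraries lacking hypothalamus markers. That 1 was Nmbr except within batch B, where it was Adcyap1r1 and neither Nmbr nor Grpr was called. Grpr had too few counts to be tested with only the 2 groups, and DESeq2 gave it no adjusted p. In BWM against sham 0 were called, against 1 (Nmbr) with no batch term and 1 within batch A. In lean against sham the count went from 0 to 1 (Grpr, log2 fold change 2.88, adjusted p = 0.0398) with no batch term. Between the batches it went from 1 to 0 with no filter on low counts and to 0 with the replicate block, where Ntsr2 was at -0.046 on the log2 scale (adjusted p = 0.854). The causes were not tested. These counts are given here without the share of all genes called in each fit, so they do not set the receptors apart from other genes. Leaving out 1 library at a time gave 2 to 2 receptors in RYGB against sham, 0 to 1 in RYGB against BWM (1 without BWM animal 4) and 0 to 0 in the 9 other group comparisons. The replicate block left 2 called in RYGB against sham, Nmbr at -1.33 and Grpr at 3.08, and beyond the batch comparison it changed no call. On linear CPM, 16 animals lay far from their group in place of 9. Of 2759 receptor values under alternatives, 211 that were not called changed sign.

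The BWM, lean, liraglutide and PYY3-36 groups were each in 1 batch, so their levels rest on the batch term. Grpr, with 0 to 37 counts per library, is limited by depth.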
